A study of Mus musculus with 16 samples.

Results

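The 10 genes described here encode surface proteins by which muscle stem cells (MuSCs) are commonly recognized. They are the syndecans Sdc3 and Sdc4, the sialomucin Cd34, the chemokine receptor Cxcr4, the adhesion molecules Vcam1, Cdh15 and Ncam1, the receptors Calcr and Met, and the caveolar protein Cav1. They were taken by symbol from a table of estimated RNA counts that lists 24411 genes, and all 10 were found in it. RNA was sequenced from 16 libraries of sorted mouse MuSCs, 4 in each of 4 groups. In TRF2 MuSC-cKO mice, a tamoxifen-inducible Cre driven by Pax7 deletes floxed alleles of Terf2, which encodes the telomere-binding protein TRF2, so the deletion is made in cells that express Pax7 when adult mice are given tamoxifen. The labels call the control mice wild type, and the mice of the study were kept on a C57BL/6 background. Whether control mice carried Cre or floxed alleles or were given tamoxifen was not stated in the sources used here. Each genotype was sampled in uninjured skeletal muscle and 3 days after 10 µl of notexin, a snake toxin that destroys myofibers, had been injected into the tibialis anterior (3 days post-injury, 3 DPI). The sort kept cells without CD45, CD31, CD11b and Sca1 that carried α7-integrin and either VCAM or CD34. Which of these antibodies served for the libraries was not stated, so Vcam1 and Cd34 may each encode a protein of the gate.

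MuSCs, or satellite cells, lie between the myofiber membrane and the basal lamina and remain quiescent until the muscle is damaged. Their surface proteins hold them in this niche, bind growth factors and chemokines, and pass on signals that keep the cells at rest or prepare them to divide. The calcitonin receptor and CD34 are known as markers of the resting state, M-cadherin ties the stem cell to its myofiber, and MET binds hepatocyte growth factor when damaged muscle releases it.

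The libraries held 620506 to 1351130 estimated counts each. No pair of libraries within a group agreed within sampling noise (smallest chi-square per degree of freedom 3.09 over 24 pairs). Replicate 3 of the libraries labelled TRF2 MuSC-cKO at 3 DPI stood apart, with a count for 15387 genes where each of the other 15 libraries had at least 19996. Terf2, the targeted gene, was at 71.5, 94.5, 66.3 and 73.1 CPM (counts scaled to library size) in control and at 49.7, 46.7, 58.7 and 27.2 CPM in TRF2 MuSC-cKO MuSCs of uninjured muscle, ranges that did not overlap, although the difference missed the threshold (log2 fold change -0.62, adjusted p = 0.199). At 3 DPI it was at 35.5, 48.6, 48.2 and 42.8 CPM in control libraries and at 52.6, 21.9, 66.9 and 89.7 CPM in those labelled TRF2 MuSC-cKO, with an estimate above 0 (0.44, adjusted p = 0.755), and directions at 3 DPI rest on the labels. The counts are per gene and do not separate the deleted part of Terf2 from the rest. Of the gate proteins' genes, Itga7 (α7-integrin) was at 406 to 528 CPM in uninjured control libraries. There, Ptprc (CD45) and Ly6a (Sca1) were at 10.5 to 17.1 CPM and 4.50 to 12.7 CPM, and Itgam (CD11b) and Pecam1 (CD31) at 3.90 to 33.7 CPM and 60.5 to 177 CPM.

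Compared per transcript length, the 10 genes spanned more than an order of magnitude in uninjured control MuSCs. Levels on this scale are abundances on the TPM scale, taken from a second deposited table in which length is divided out. Sdc4 was the most abundant at 512 (range 407 to 593), followed by Cdh15 at 444, Cav1 at 290.5, Vcam1 at 224, Ncam1 at 193 and Cd34 at 184. Each of these overlapped its neighbour in the order. Cxcr4 (131) lay below all libraries of Cd34, Sdc3 (55.7) below all of Calcr (102), and Met (32.6) below all of Sdc3. The order in uninjured TRF2 MuSC-cKO MuSCs was the same except that Sdc3 (55.5) and Calcr (46.5) changed places, with overlapping ranges. At 3 DPI the order was different: in control MuSCs Sdc3 led at 297 and Cxcr4 followed at 238, and Calcr was last at 10.5, below all libraries of Met (28.0).

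**Figure D1:**
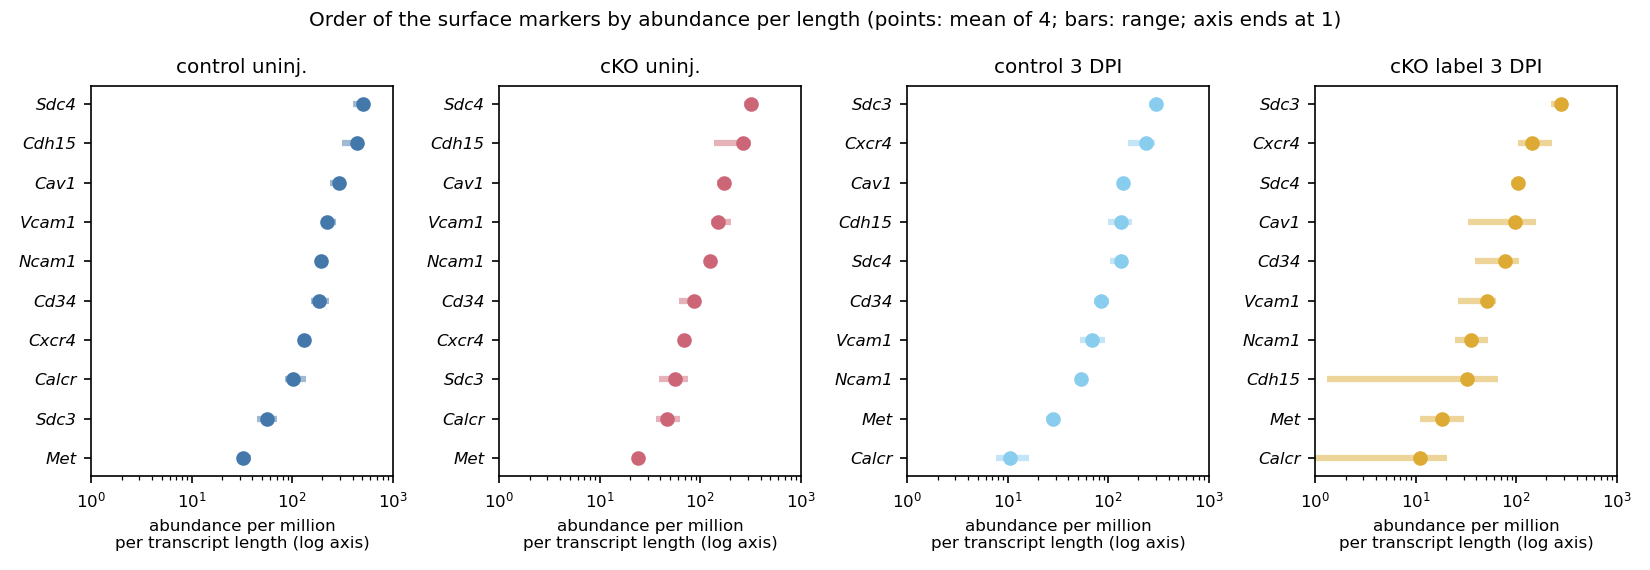
Order of the 10 surface marker genes by abundance per transcript length on the TPM scale (log axis), one panel for each group; points are means of 4 libraries and bars run from the lowest to the highest library. Sdc4 leads in both uninjured panels (512 in control) and Sdc3 in both 3 DPI panels (297 in control).

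Most of these genes were lower in uninjured TRF2 MuSC-cKO MuSCs. Promoters are shown here because TRF2 is a DNA-binding protein that is best known at the G-rich telomere repeat. Promoter sequence, the 250 bases before the annotated start, was taken from RefSeq (GRCm38.p6) by symbol and matched 8 of the 10 genes. The windows of Cd34, Calcr, Cav1 and Cxcr4, the members called lower whose window lies outside the gene as GENCODE annotates it but for 1 base of Calcr and 2 of Cd34, are given 5′ to 3′ on the strand of the gene and end at or within 10 bases of its start. Capitals mark every run of at least 3 G or 3 C.
Cd34, chr1:194938571-194938818, plus strand: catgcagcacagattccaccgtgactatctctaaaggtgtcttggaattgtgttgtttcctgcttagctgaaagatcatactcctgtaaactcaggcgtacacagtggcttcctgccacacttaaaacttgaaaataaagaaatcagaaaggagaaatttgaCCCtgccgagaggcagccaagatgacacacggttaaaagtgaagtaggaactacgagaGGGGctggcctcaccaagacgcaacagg
Calcr, chr6:3764715-3764963, minus strand: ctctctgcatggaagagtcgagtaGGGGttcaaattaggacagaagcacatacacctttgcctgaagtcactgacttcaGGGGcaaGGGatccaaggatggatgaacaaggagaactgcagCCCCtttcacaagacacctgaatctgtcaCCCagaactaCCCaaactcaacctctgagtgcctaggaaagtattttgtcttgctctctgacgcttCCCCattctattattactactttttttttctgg
Cav1, chr6:17306085-17306334, plus strand: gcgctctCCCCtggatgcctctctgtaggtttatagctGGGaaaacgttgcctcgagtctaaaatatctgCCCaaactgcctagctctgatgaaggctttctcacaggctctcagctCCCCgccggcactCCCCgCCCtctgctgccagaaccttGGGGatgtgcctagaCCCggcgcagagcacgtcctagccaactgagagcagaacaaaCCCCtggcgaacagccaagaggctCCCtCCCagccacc
Cxcr4, chr1:128592300-128592549, minus strand: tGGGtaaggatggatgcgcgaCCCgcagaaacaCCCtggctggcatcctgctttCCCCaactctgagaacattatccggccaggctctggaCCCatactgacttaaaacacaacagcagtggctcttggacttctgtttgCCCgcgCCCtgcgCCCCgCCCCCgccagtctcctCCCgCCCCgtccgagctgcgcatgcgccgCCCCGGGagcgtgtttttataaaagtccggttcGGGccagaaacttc
They held 2, 7, 11 and 14 such runs respectively, and the median over 32817 promoters of 250 bases was 8. A pattern of 4 runs of GGG separated by 1 to 7 bases, on either strand, which is the usual letter pattern for a G-quadruplex, was present in 5 of the 8 windows (Sdc3, Sdc4, Cxcr4, Cdh15 and Met) and in 16.7% of all promoters. The windows of Sdc4 and Cdh15 lie inside the gene as GENCODE annotates it, as does most of that of Met. Of the 4 windows printed, that of Cxcr4 held the pattern and those of Cd34, Calcr and Cav1 did not. The GC content of the 8 windows ran from 46.0% (Calcr) to 76.4% (Sdc3), with a median of 52.4% over all promoters. The 5 windows with the pattern ran from 61.2% (Cxcr4) to 76.4% (Sdc3), and the share over all promoters was not matched for GC content. Of these 5 genes, Sdc3 and Met were not called lower in uninjured muscle. These matches of letters are a description, and binding of TRF2 was not tested here. The telomere repeat TTAGGG was in none of the 8 windows and in 9.32% of all promoters, searched on both strands. The E-box CANNTG was in 4 windows (66.2% of all promoters) and TGGGAA, the core of the RBPJ site, in 2, those of Met and Cav1 (21.6%).

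In uninjured muscle, 8 of the 10 surface marker genes were lower in TRF2 MuSC-cKO than in control MuSCs, and none was higher. A gene was called when edgeR's quasi-likelihood test gave an adjusted p (Benjamini-Hochberg, over all genes tested) under 0.02 and the fold change was over 1.5, which 3.22% of 14048 genes met (lower 2.63%). All 10 members were tested and all 10 estimates were below 0, as were 46% of all estimates, with a median log2 fold change of -0.90 where all genes had 0.06. Sdc4, Cd34, Cxcr4 and Calcr had been picked out by the study on these samples. So had Col5a1, Col5a3, Dag1, Myod1, Heyl and Pax7, named further on. The direction of all these genes is therefore not independent evidence. In 9 of the 10 the groups did not overlap, against 12.6% of all genes tested and 9.18% with TRF2 MuSC-cKO below control. In bulk RNA, fewer cells that express a gene and less RNA of it per cell cannot be told apart.

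The syndecans carry heparan sulfate chains that bind growth factors, and of the pair Sdc4 was called and Sdc3 was not. Sdc4 (chr2:164424247-164443887 in GRCm38, minus strand) was at 528, 632, 402 and 667 CPM in control and at 290.0, 244, 250.5 and 326 CPM in TRF2 MuSC-cKO libraries, so the lowest control library lay above the highest knockout library. Its level was 1.84-fold lower (log2 fold change -0.88, SE 0.19, adjusted p = 0.00309). Sdc3 (chr4:130792537-130826319, plus strand) was at 100.1, 156, 91.9 and 152 CPM against 124, 106, 70.1 and 91.3 CPM. These ranges overlapped, and its difference of -0.22 on the log2 scale had an interval of -0.67 to 0.23 (95% interval from its SE) and an adjusted p of 0.630. Of 14 other genes of heparan sulfate proteoglycans, of their synthesis and of binding partners of syndecan tails, 1 was called lower, the glypican Gpc1 (-0.93, adjusted p = 0.00673), and 1 higher, the extracellular sulfatase Sulf2 (1.24, adjusted p = 0.0156).

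CD34, a sialomucin of quiescent MuSCs, had the lowest adjusted p of the 10 genes. Cd34 (chr1:194938819-194961279, plus strand) was at 198, 193, 151 and 281 CPM in control and at 52.1, 90.4, 75.9 and 91.3 CPM in TRF2 MuSC-cKO MuSCs, with no overlap. The change was -1.28 (SE 0.22), or 2.43-fold, with an adjusted p of 1.71e-04. An annotated antisense gene, Gm16897, shares 148 exonic bases with Cd34, and although the library kit keeps strand, whether strand was used in the counting was not stated, so it is not known whether their reads were kept apart. None of its 4 relatives and other selectin ligands (Podxl, Podxl2, Cd164 and Selplg) passed the test.

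Among the adhesion molecules, all 3 were lower. VCAM-1, which binds α4 integrins on other cells, was encoded at 419, 319, 291 and 327 CPM in control and 142, 164, 162 and 256 CPM in knockout libraries (chr3:116109949-116129688, minus strand). It fell 1.72-fold (-0.78, SE 0.20, adjusted p = 0.0124), the highest adjusted p of the 8 calls, although its groups did not overlap. Cdh15, or M-cadherin (chr8:122847966-122867397, plus strand), was at 661, 529, 360.4 and 709 CPM against 125, 333, 282 and 335 CPM. The highest knockout library, at 335 CPM, lay just under the lowest control library, at 360.4 CPM, and knockout replicate 1 was well below the other 3 (log2 fold change -0.94, SE 0.23, adjusted p = 0.00866). NCAM, an immunoglobulin-type adhesion molecule that is often modified with polysialic acid, had the lowest SD relative to its mean in both groups. Ncam1 (chr9:49502136-49798925, minus strand) was at 489, 458, 485 and 616 CPM and 279, 271, 252 and 294 CPM, a change of -0.78 (SE 0.19, adjusted p = 0.00734). The antisense gene Gm11149 shares 417 exonic bases with it.

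Some genes of the adhesion molecules' partners passed the test, which 2.63% of all genes did as lower. Of 4 integrin subunits of VCAM-1 receptors, Itgb1 was lower (-0.79, adjusted p = 0.0118) and the others did not pass. Of 9 cadherins and catenins, 2 were lower, the T-cadherin gene Cdh13 (-0.82) and the plakoglobin gene Jup (-0.95). Of 7 NCAM partners and polysialyltransferases, the growth factor receptor Fgfr1 (-0.79) and the GDNF receptor subunit Gfra1 (-1.02) were called lower and none was called higher. The median log2 fold change was 0.77 for these 7 genes and 0.23 for the 4 integrin subunits. It was -0.497 for the 9 cadherins and catenins, where all genes had 0.06. Itga4 (0.95, adjusted p = 0.0883) and Ncam2 (1.05, adjusted p = 0.176) had estimates above 0 and were not called.

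Among the receptors, Calcr and Cxcr4 were called and Met was not, and Calcr had the largest estimate of the 10 genes. Calcr, the calcitonin receptor (chr6:3685680-3764714, minus strand), was at 149, 131, 131 and 233 CPM in control and at 42.6, 55.1, 80.2 and 58.6 CPM in TRF2 MuSC-cKO libraries, with a change of -1.32 (SE 0.24, 2.50-fold, adjusted p = 3.07e-04). All 4 knockout libraries lay under all 4 control libraries, and control replicate 4 was the highest. Of 11 genes tested among its partners, 3 were lower: Col5a1 (-0.97), Col5a2 (-1.24) and Col5a3 (-1.28), the chains of collagen V, which is known to act on the calcitonin receptor of MuSCs. Cxcr4, the receptor of the chemokine CXCL12 (chr1:128588199-128592293, minus strand), was at 93.8, 90.0, 99.99 and 129.7 CPM against 40.2, 42.6, 38.6 and 53.1 CPM. That is a 2.17-fold fall with separate groups (-1.12, SE 0.25, adjusted p = 0.00356), and Ackr3, the scavenger receptor of the same ligand, fell too (-1.06, adjusted p = 0.00752). Met (chr6:17463800-17573980, plus strand) was at 95.6, 91.8, 79.1 and 127 CPM and 55.6, 63.4, 50.1 and 62.6 CPM. Its groups did not overlap (exact permutation test of 4 against 4 libraries, two-sided p = 0.0286, the smallest it allows), but the change of -0.63 (SE 0.24) missed the threshold over all genes (adjusted p = 0.124). None of the 9 genes tested among its ligand and adaptors was called.

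Caveolin-1 coats caveolae, small pits of the plasma membrane that flatten under tension. Cav1 (chr6:17306335-17341452, plus strand) was at 365, 349, 242 and 359 CPM in control and 136, 177, 132 and 189 CPM in TRF2 MuSC-cKO MuSCs, a 1.90-fold fall (-0.93, SE 0.20, adjusted p = 0.00192). Control replicate 3 was lower than the other 3 control libraries but above every knockout library. Of the 8 other caveolar genes tested, 3 fell and none rose: Sdpr, also named Cavin2 (-1.31), Prkcdbp, or Cavin3 (-1.17), and Ehd2, an ATPase at the caveolar neck (-0.77). In a list of 22 other surface proteins of MuSCs, which also holds Itgb1 and Fgfr1 named above, 7 were lower and none higher, among them Itga7, which like Cd34 and Vcam1 encodes a protein of the sort (520.0, 408, 406 and 528 CPM against 144, 153, 189 and 256 CPM, -1.21, adjusted p = 1.05e-04), the engulfment receptor Megf10 (-1.20), the dystroglycan gene Dag1 (-1.09) and the tetraspanin gene Cd82 (-0.83). Over all partner lists together, each gene counted once, 18 of the 87 genes tested were lower and 1 was higher (21.8% called, against 3.22% of all genes). These lists were chosen with earlier results of these data known, so the share is not independent evidence.

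**Figure D2:**
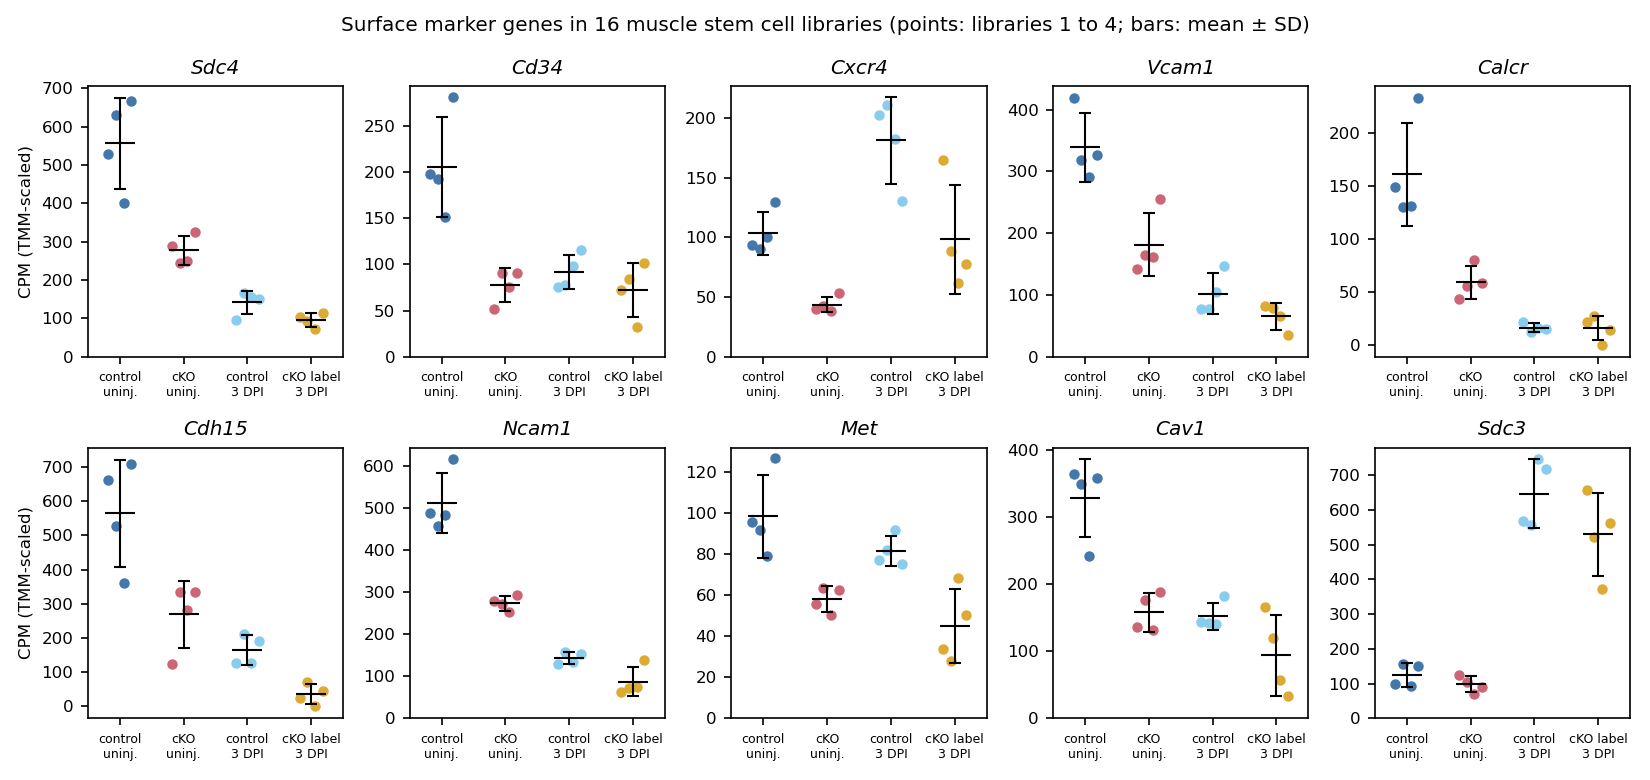
Level of each surface marker gene in CPM (scaled by TMM over the 16 libraries) in the 4 groups; points are libraries 1 to 4 from left to right, and bars give the mean ± SD. In uninjured muscle the knockout points of every gene except Sdc3 lie below all control points, whereas Sdc3 and Cxcr4 are higher at 3 DPI in control.

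How many of the members were called depended on the fit and on single libraries, while all 10 estimates stayed below 0 under every alternative. Of the 8 calls, 2 remained with limma's robust fit, Calcr and Cxcr4, and 4 when counts were scaled by library size alone, Sdc4, Cd34, Calcr and Cav1. When all 16 libraries shared 1 fit, 1 remained, Cd34. On the deposited table in which length is divided out, 0 were called by edgeR, and 17 genes in all, with 9 members and 2435 genes at an unadjusted p under 0.05. There the estimates of the 8 genes ran from -1.39 (Calcr) to -0.82 (Vcam1) and their adjusted p from 0.0344 (Cxcr4) to 0.188 (Cdh15). The count was 3 without control replicate 4, and 5 each without control replicate 1, control replicate 2 or knockout replicate 3. Replicate 4 of each uninjured genotype carries another code in the sample descriptions than replicates 1 to 3, and it was the highest library of its group in 7 of the 10 genes in both genotypes. Without both, a choice made after seeing the data, Cd34, Vcam1 and Cav1 remained called (3 of 10). What the codes stand for was not stated. In uninjured muscle no code contained both genotypes, so genotype and code cannot be told apart.

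Myogenic genes and markers of other cells moved in uninjured muscle as well. The summed level of 8 myogenic identity genes was 3599.7 to 5641 CPM in control and 2283 to 3049 CPM in knockout libraries. Of the 8, 3 were called lower, Myod1 (-1.14), Myog (-2.04) and the Notch target Heyl (-0.997). Pax7 was at 769 to 1487 CPM in control and 694 to 882 CPM in knockout libraries. These ranges overlapped, and Pax7 was not called (-0.53, adjusted p = 0.111). The sum of 10 fibroadipogenic markers was 4739.7 to 7494 CPM against 1283 to 2688 CPM, with 1 of the 10 at 0 in 1 library (control replicate 2). Most of it was Col3a1 (4041 to 6597 CPM against 737 to 1693 CPM), Col3a1 and Dpt were called lower (-2.12 and -1.65), and Dcn was called higher (1.20). Of 9 smooth muscle and pericyte markers tested, Rgs5 (1.33) and Cspg4 (0.88) were called higher, although the sum overlapped (2489.6 to 3514 CPM against 2049.6 to 2924 CPM). Leukocyte markers summed to 65.3 to 109 CPM, with 1 or 2 of the 10 at 0 in each control library, and to 91.1 to 179 CPM, with at most 1 at 0, and endothelial markers to 555 to 778 CPM and 479 to 825 CPM, with none called of the 5 and 9 genes tested. Gene by gene, the lists read otherwise than the sums. The median log2 fold change was 0.64 for the 7 fibroadipogenic markers tested and 0.64 for the 9 smooth muscle and pericyte markers. It was 0.61 for 5 leukocyte, 0.49 for 10 Schwann and 0.04 for 9 endothelial markers, where all genes had 0.06. The part of RNA from other cells in the falls of the surface markers was not tested.

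Injury went with changes in both directions. In control MuSCs, 9 of the 10 were called between 3 DPI and uninjured muscle, 7 lower and 2 higher, where 20.2% of 15356 genes were called, 9.46% lower and 10.8% higher. These 9 genes had separate groups, and so had 24.3% of all genes tested. Calcr fell most, from 131 to 233 CPM to 11.7 to 21.6 CPM, with 12 to 18 counts in each 3 DPI library (9.97-fold, log2 fold change -3.32, SE 0.27, adjusted p = 1.28e-13). Sdc4 ended at 97.3, 165, 155 and 151 CPM (-1.92, adjusted p = 2.65e-10). On the TPM scale Sdc4 had the highest mean of the members before injury, with a range that overlapped that of Cdh15. Each 3 DPI library held less Sdc4 than the lowest uninjured one. Ncam1 (-1.79), Cdh15 (-1.73) and Vcam1 (-1.68), the 3 adhesion molecules, fell by similar amounts, to 128 to 159 CPM, 126 to 212 CPM and 77.2 to 147 CPM. Cd34 (-1.11, adjusted p = 4.60e-05) and Cav1 (-1.06, adjusted p = 2.25e-05) fell about as much as each other, to 75.7, 77.8, 98.3 and 115 CPM and 144, 143, 141 and 183 CPM.

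The pair that rose in control MuSCs were a syndecan and the chemokine receptor. Sdc3 went from 100.1, 156, 91.9 and 152 CPM to 568, 556, 745 and 719 CPM, a 5.33-fold rise (2.41, SE 0.21, adjusted p = 7.04e-13), so that the syndecans moved in opposite directions. Cxcr4 went to 202, 211, 182 and 130.0 CPM, and its highest uninjured library (129.7 CPM) lay just under its lowest 3 DPI library (130.0 CPM; 0.85, SE 0.20, adjusted p = 0.00125). The call of Cxcr4 was lost on the table with length divided out (adjusted p = 0.0266) and when all 16 libraries shared 1 fit (adjusted p = 0.0586, over alternatives that ran from 4.80e-05 to 0.0586). Met, at 77.2, 81.7, 91.5 and 74.9 CPM, was the member that was not called (-0.23, interval -0.65 to 0.19, adjusted p = 0.517). Within the description code that held both conditions (2 libraries at 3 DPI and 1 uninjured in each genotype), all 10 members had the sign of the full comparison, in control and under the knockout label.

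Of the 88 partner genes tested after injury in control MuSCs, 31 fell and 19 rose (56.8% called, against 20.2% of all genes, 9.46% lower and 10.8% higher). Here too the lists were chosen with earlier results of these data known. Beside the syndecans, Sulf1 fell (-1.38) while Sulf2 (2.696) and the syntenin gene Sdcbp (3.07), whose product binds syndecan tails, rose. The ligands Cxcl12 (0.89) and Hgf (1.68) and the VCAM-1 receptor subunit Itga4 (2.45) rose, and Ackr3 (-1.88), Fgfr1 (-2.35) and Cdh13 (-2.37) fell. In the list of 22 other MuSC surface proteins, which shares Fgfr1 with the partners just named, 15 fell, with Fgfr4 (-2.76) and Notch3 (-2.75) furthest, and 4 rose, among them the hyaluronan receptor Cd44 (2.67) and Nrp1 (2.47).

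Leukocyte markers moved with injury in the same libraries. All 10 genes of the list were called higher in control MuSCs at 3 DPI, and their sum went from 65.3 to 109 CPM to 4636 to 5946 CPM, with Lyz2 (8.77) and Tyrobp (7.89) furthest and none of the 10 at 0 in any 3 DPI library. In the libraries labelled TRF2 MuSC-cKO the sum went from 91.1 to 179 CPM to 1967 to 5272 CPM and 9 of the 10 were called higher. Among the genes of the exclusion gate, Ptprc, Itgam and Ly6a were called higher in control, Ly6a by 1.92 on the log2 scale, and Ptprc and Itgam under the knockout label. Ptprc rose to 186 to 285 CPM and Itgam to 334 to 457 CPM in control. Over the same libraries the sum of the myogenic identity genes went to 828 to 1214 CPM in control and 266 to 629 CPM under the knockout label, with 6 of 8 called lower in each, and Pax7 fell from 769 to 1487 CPM to 128 to 184 CPM in control. Of 10 proliferation markers, 9 were called higher in control, with Top2a at 3.33 and Mki67 at 2.48. Under the knockout label 2 were, Top2a (2.84) and Mki67 (2.37), and a difference between these 2 counts was not tested. None of the 10 was called between the genotypes at 3 DPI, where 0% of all genes were. None was called for the difference of genotype effects between 3 DPI and uninjured muscle, where 0.0178% of all genes were. Over all genes tested, 10.8% were called higher and 9.46% lower in control, and 2.43% and 1.61% under the knockout label. Of 10 fibroadipogenic markers, 6 were called higher in control, among them Cd248 (2.19), Col1a1 (2.05) and Pdgfra (1.70), and 2 lower, Col3a1 (-0.76) and Dpt (-2.17), while Col1a1 was called higher under the knockout label (1.72). Their sum was 3828 to 5944 CPM and 2969.6 to 6084 CPM at 3 DPI. Of 10 smooth muscle and pericyte markers, 3 were called lower in control (Acta2, Tagln and Notch3) and 1 under the knockout label (Notch3). The sum of endothelial markers was 719.6 to 1029.7 CPM and 695 to 879.8 CPM at 3 DPI, with none of the 10 called. The part of RNA from other cells in the rise of Sdc3 and Cxcr4 and in the falls of the other members was not tested.

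**Figure D3:**
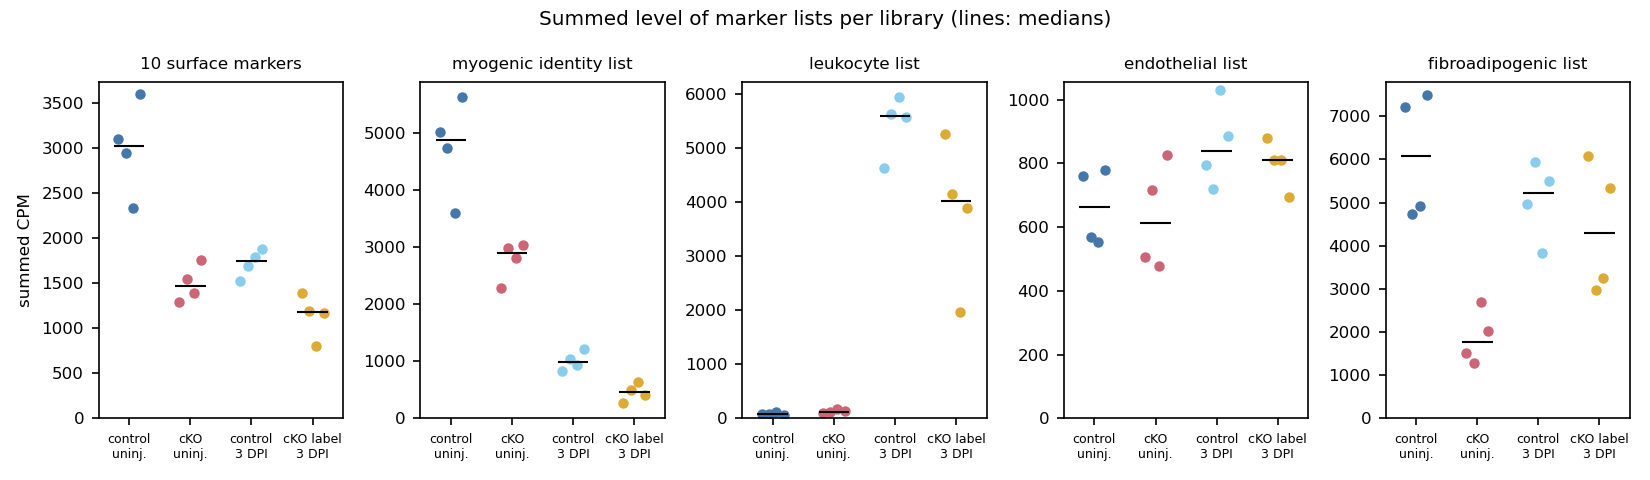
Summed CPM of the 10 surface markers and of 4 marker lists in each of the 16 libraries by group; lines are medians. Leukocyte markers sum to at most 179 CPM in uninjured libraries and to at least 1967 CPM at 3 DPI, while the myogenic identity list falls with injury in both genotypes.

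With injury in MuSCs of TRF2 MuSC-cKO mice, as labelled, 5 of the 10 genes were called, 4 lower and 1 higher, where 4.04% of 14578 genes were called, 1.61% lower and 2.43% higher. The biological coefficient of variation was 0.523 here and 0.276 for injury in control. On simulated data, 2% of genes changed by 1 log2 unit were recovered here and 32% there. The counts of calls in the 2 genotypes therefore cannot be compared directly. Sdc3 rose from 124, 106, 70.1 and 91.3 CPM to 659, 524, 373 and 563 CPM (2.36, adjusted p = 8.50e-05). Sdc4 fell to 103, 94.6, 73.1 and 115 CPM (-1.59, adjusted p = 8.63e-04). Ncam1 was at 63.1, 72.7, 74.4 and 139 CPM (-1.72, adjusted p = 0.00158). Every 3 DPI library of these 3 genes lay outside the uninjured range, and their calls held under every alternative run. Vcam1 was at 81.8, 79.6, 65.7 and 34.9 CPM (-1.52, adjusted p = 0.0102). Cdh15 was at 25.7, 70.3, 1.24 and 44.3 CPM, where the third value is a single count (-2.98, SE 0.62, adjusted p = 0.00893). For 7 of the 10 genes no uninjured library lay within the 3 DPI range, as held for 13.6% of all genes tested. The other 2 of these 7 were Cxcr4, at 165, 88.8, 62.0 and 78.0 CPM (1.10, adjusted p = 0.107), and Calcr, at 21.0, 26.5, 0 and 13.98 CPM (-1.995, adjusted p = 0.134), where a count of 0 in replicate 3 allows up to 3.57 CPM (3 counts, counting error only).

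Cd34, Cav1 and Met overlapped between the groups and were not called. Cd34 was at 52.1, 90.4, 75.9 and 91.3 CPM before and at 72.4, 84.2, 32.2 and 101 CPM after injury, overlapping ranges with a change of -0.16 (interval -0.88 to 0.56, adjusted p = 0.907). Cav1 (166, 119.9, 57.0 and 33.8 CPM at 3 DPI, -0.81) and Met (33.9, 27.7, 68.2 and 50.1 CPM, -0.42) had adjusted p of 0.351 and 0.690. The count of 5 was 3 without knockout replicate 2, 3 or 4 of uninjured muscle or without replicate 1 or 4 at 3 DPI, Cdh15 and Vcam1 being lost, and it was 7 without 3 DPI replicate 3, when Cxcr4 (adjusted p = 0.00560) and Calcr (adjusted p = 0.00884) passed too. Over the alternatives, the adjusted p of Cxcr4 ran from 0.00560 to 0.368 and that of Calcr from 0.00850 to 0.356.

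**Figure D4:**
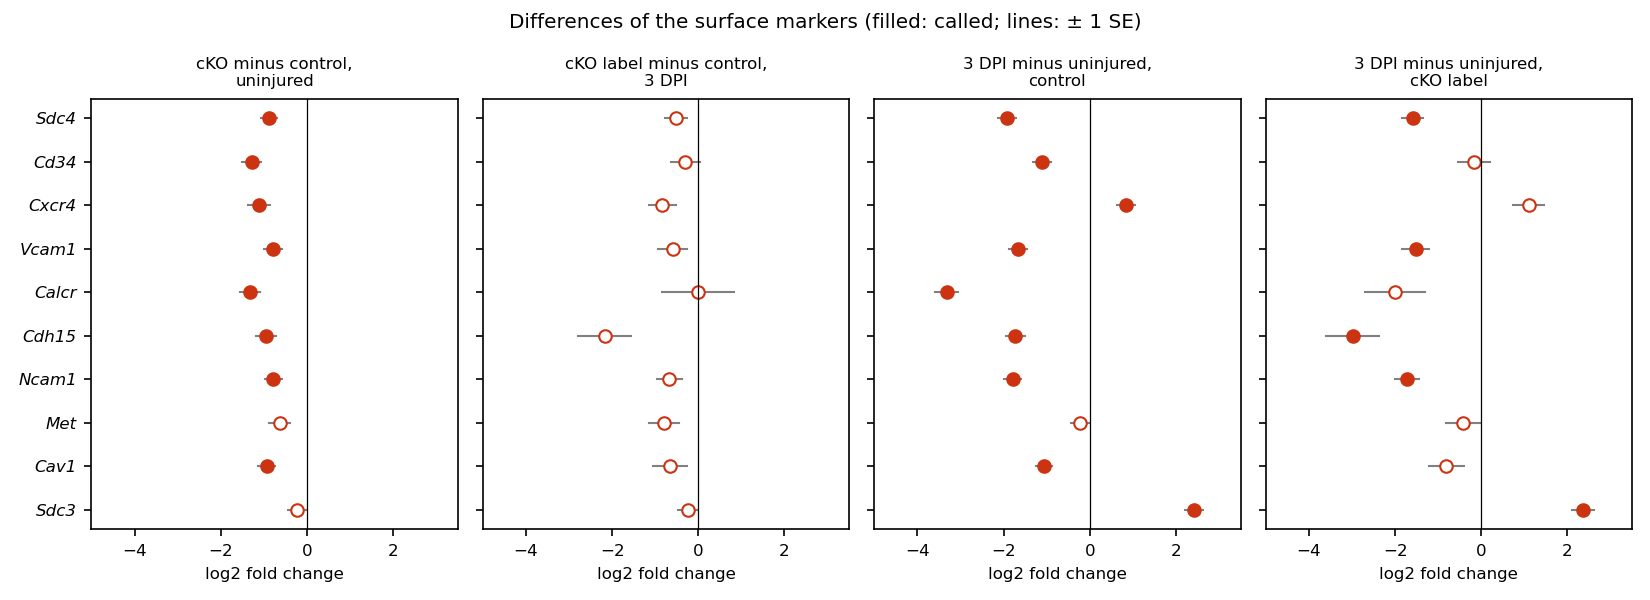
Log2 fold change of each surface marker gene in the 4 comparisons; filled points passed the threshold (adjusted p under 0.02 and fold change over 1.5), and lines are ± 1 SE of edgeR's fit on 8 libraries. All 10 points lie below 0 in uninjured muscle, where 8 are filled, and none is filled for genotype at 3 DPI.

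At 3 DPI, none of the 10 genes was called between the genotypes by edgeR, and none of the 14559 genes tested was (0%). At an unadjusted p under 0.05 there were 4 members and 1362 genes (9.36%), and DESeq2 called 22 genes and limma's robust fit 28, none of them a member. All 10 estimates were below 0, as were 49.9% of all, with a median of -0.62 where all genes had 0.0014. Cdh15 differed most, at 128, 212, 126 and 193 CPM in control libraries and 25.7, 70.3, 1.24 and 44.3 CPM in those labelled TRF2 MuSC-cKO (-2.17, SE 0.61, unadjusted p = 0.00355, adjusted p = 0.452). Cdh15 and Met were the members whose groups did not overlap, as for 4.87% of genes with the knockout label below control. Met was at 77.2, 81.7, 91.5 and 74.9 CPM and 33.9, 27.7, 68.2 and 50.1 CPM (-0.80, unadjusted p = 0.0383). Cxcr4 (-0.84, unadjusted p = 0.0187) and Ncam1 (-0.67, unadjusted p = 0.0355) overlapped through 1 high library of the knockout label each, replicate 1 at 165 CPM and replicate 4 at 139 CPM. Itga7, the gene of the other gate protein, was at 175, 269, 221 and 225 CPM and 93.5, 96.9, 40.9 and 41.9 CPM (-1.66, unadjusted p = 2.02e-04, adjusted p = 0.420).

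Without the library that stood apart, Cdh15 was called (-1.80, adjusted p = 0.00604, against 0.939 as the highest over the alternatives), the only member among 16 genes called in all. Calcr was at 21.6, 11.7, 15.7 and 14.8 CPM against 21.0, 26.5, 0 and 13.98 CPM, and its difference of -0.007 became 0.40 without that library. The biological coefficient of variation was 0.495 here and 0.297 in the uninjured comparison. At 3 DPI, 1 description code held 2 libraries of each genotype, and within it the ratio of mean CPM had the sign of the full comparison for 6 of the 10 members. Cdh15 differed by -1.82 on the log2 scale and Met by -1.37 within that code, whereas Sdc3, Cd34, Vcam1 and Calcr lay from 0.03 to 0.51 above 0. Cav1, whose means were 143 CPM in both genotypes there, had no clear sign.

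The genotype effect at 3 DPI minus that in uninjured muscle was fitted on all 16 libraries, where 3 of 16822 genes were called by edgeR (0.0178%) and no member was. At an unadjusted p under 0.05 there were 2 members, Cd34 (1.07, SE 0.42, unadjusted p = 0.0185, adjusted p = 0.757) and Calcr (1.43, SE 0.67, unadjusted p = 0.0420, adjusted p = 0.845), and 5.74% of all genes, and neither DESeq2 nor limma called a member. For genes lower in uninjured knockout MuSCs, a positive value means that the genotypes lay closer at 3 DPI. Cd34 was at 206 ± 54.3 CPM and 77.4 ± 18.3 CPM (mean ± SD, n = 4) in uninjured control and knockout MuSCs and at 91.8 ± 18.7 CPM and 72.6 ± 29.4 CPM at 3 DPI. For Calcr these levels were 161 ± 48.7 CPM, 59.1 ± 15.6 CPM, 16.0 ± 4.16 CPM and 15.4 ± 11.47 CPM. Cdh15 had an estimate below 0 (-1.14, interval -2.48 to 0.20), with levels that went from 565 ± 156 CPM and 269 ± 98.8 CPM to 165 ± 44.2 CPM and 35.4 ± 29.2 CPM. A difference between the genotype effects was thus not detected for any member at this depth and spread.

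Within groups, the members varied together in part. Control replicate 3 of uninjured muscle was the lowest of its group in 7 of the 10 genes, with a median deviation of -0.34 from the group mean on the log2 scale. The median deviation was 0.33 in control replicate 4 and 0.25 in knockout replicate 4. Replicate 3 of the 3 DPI libraries under the knockout label was lowest in 6 genes, with a median deviation of -0.47, but it was the highest library of its group for Met. In control libraries at 3 DPI it stayed between -0.16 and 0.14. Among the libraries labelled TRF2 MuSC-cKO at 3 DPI, replicate 4 had the lowest levels of both Vcam1 and Cav1 and the highest of Ncam1.

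**Figure D5:**
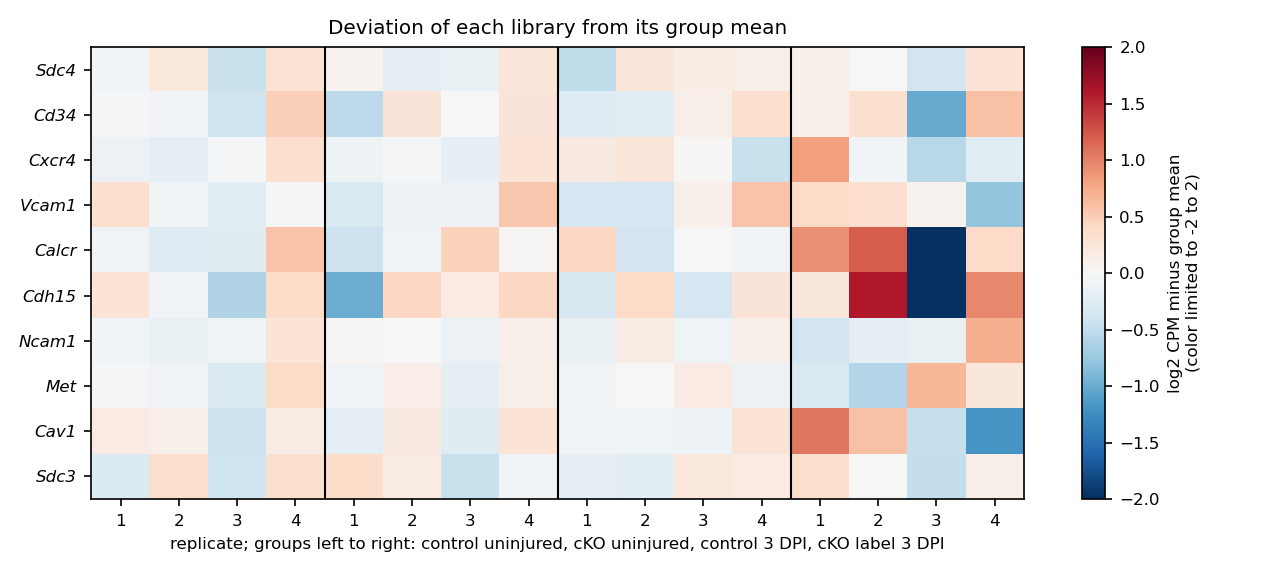
Deviation of each library from its group mean in log2 CPM for the 10 surface marker genes (color limited to -2 to 2), with the 4 groups separated by black lines. The widest deviations are those of Calcr and Cdh15 in replicate 3 of the 3 DPI libraries labelled TRF2 MuSC-cKO, and the control 3 DPI block is the palest.

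For each member, other genes whose profile lay nearest over the 16 libraries were found by the root mean square difference of centred log2 CPM among 16812 genes. This is a description, and the libraries that shape it are shared by all genes. Sdc3, whose own spread was 1.24, had Actr3 (0.22), an actin-nucleating subunit, and Fam129b (0.30) among its nearest genes. Sdc4 was nearest to Ltbp3 (0.23), St3gal2 (0.27) and Nfib (0.28), and Ncam1 to Nfib (0.29), Tln2 (0.29) and Egfr (0.30), so that Nfib stood near both. Cd34 was nearest to the ribosomal protein genes Rpl5 (0.27), Rpl21 (0.29) and Rpl28 (0.29), whose reads may be shared with pseudogene copies. Cxcr4 lay by Ppp1ca (0.29), Cd63 (0.34) and Actg1 (0.35), Vcam1 by Gnas (0.36), Nckap5l (0.36) and Rbm20 (0.36), Met by Hnrnpl (0.29), Lats1 (0.29) and Pknox1 (0.29), and Cav1 by Tbc1d17 (0.28), Rpl9 (0.33) and Nrip1 (0.33). The members of widest spread had more distant neighbours. Calcr (spread 1.65) was nearest to Foxo1 (0.47), Cdon (0.48) and Chrdl2 (0.48), and Cdh15 (spread 1.91) to Cnn3 (0.57), Cdh13 (0.59) and Olfml2a (0.59).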

How the data were processed

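RNA of sorted MuSCs from 16 mouse libraries was analysed. Per the submitters' processing notes and the study's methods, reads were trimmed with Trim Galore 0.6.7, aligned with STAR 2.6.1d (the methods name another release) to GRCm38 and quantified with Salmon 1.5.2. The authors deposited a table of estimated counts per gene and a second table of estimated counts rescaled so that transcript length is divided out. The library kit keeps strand and adds molecular identifiers, but whether the counting used either, and the annotation release, were not given in the sources used here. Libraries were mapped to groups by their titles, and the study speaks of biological replicates, but the titles name no mouse, so p-values measure the spread between these libraries.

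Estimated counts were rounded and tested with edgeR 4.0.16 in R 4.3.3 (filterByExpr, TMM scaling, robust quasi-likelihood test), on the 8 libraries of each comparison and on all 16 for the difference of the genotype effects. Genes were called at a Benjamini-Hochberg adjusted p under 0.02 over all genes tested and a fold change over 1.5. CPM were scaled by TMM over the 16 libraries. Single values were also tested by an exact permutation test over all 70 regroupings (smallest p 0.0286). The floor of 3 counts and the totals per library cover counting error only. Levels between genes were compared on the rescaled table as abundance on the TPM scale. Alternatives were DESeq2 1.42.0, limma 3.58.1 (robust and voom), other scalings, filters and thresholds, the rescaled table, the replicate number as a block, 1 shared fit, single description codes and leaving out each library. On simulated data, 29% of genes changed by 1 log2 unit and 83% of those changed by 2 were recovered for genotype in uninjured muscle, 0% and 26% for genotype at 3 DPI, 32% and 80% for injury in control and 2% and 23% for injury in TRF2 MuSC-cKO, with no wrong sign. Named genes were all 10 members, Terf2, Pax7 and the gate genes, the 3 nearest profiles of each member, and genes of the partner and cell type lists that were called, of which the text names examples and counts the rest. 1 gene among the nearest profiles is not reported here. The members and lists were chosen with earlier results of these data known. Of the lists, Schwann markers had no call in any comparison and myofiber markers had 2, Ckm and Tnni2, higher with injury in control. Positions are from GENCODE M21 and promoters from RefSeq (GRCm38.p6).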

Additional observations from a re-analysis of the deposited data

Results flagged for a closer look

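In 40 groups of 4 libraries (10 genes in 4 groups), 2 held a library whose gap to its nearest neighbor relative to the group's range passed Dixon's 95% critical value (log2 CPM), and chance alone marks about 1 group in 20. Both were for Cav1. Control replicate 3 of uninjured muscle was at 241.8 CPM, where the other 3 libraries lay at 349 to 365 CPM. Control replicate 4 at 3 DPI was at 182.7 CPM, where the other 3 lay at 141 to 144 CPM. Cav1 kept its calls in uninjured muscle and with injury in control when either library was left out.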

How the results depend on the processing

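Of the 8 calls between genotypes in uninjured muscle, 2 remained with limma's robust fit, 4 with library size alone, 0 on the rescaled table and 1 when 16 libraries shared 1 fit, and 3 to 8 when 1 library was left out. The count was 3 without replicate 4 of both genotypes, an alternative chosen after seeing the data. Library size alone moved the median of all genes from 0.06 to 0.24. The 5 calls with injury in TRF2 MuSC-cKO became 3 on the rescaled table and 3 to 7 with 1 library left out, and the 0 calls between genotypes at 3 DPI 0 to 1. With the replicate block, 8, 0, 9, 4 and 0 members were called for genotype in uninjured muscle, genotype at 3 DPI, injury in control, injury in TRF2 MuSC-cKO and the difference of effects, where Vcam1 lost its call (adjusted p = 0.0670). Same-numbered libraries deviated together with correlations of -0.11 to 0.11, 1 of them over 0.1, so the numbers were not taken to pair libraries. In uninjured muscle 3 libraries correlated best with their own number, and none did in the other comparisons. The block moved the calls over all genes from 452 to 536, from 3104 to 2837, from 589 to 364 and from 3 to 1, and left 0 at 3 DPI.

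Signs reversed only for estimates that were not called. At 3 DPI, Calcr was at 0.13 with limma's robust fit, 0.067 with library size alone and 0.55 within 1 description code, and ran from -0.41 to 0.40 with 1 library left out. In edgeR's fit within that code, which is not the ratio of means, Sdc3 was at 0.081, Cd34 at 0.037, Vcam1 at 0.066 and Cav1 at 0.0052. With injury in TRF2 MuSC-cKO, Cd34 ran from -0.33 to 0.11 with 1 library left out. The difference of effects was -0.074 for Ncam1 with limma's robust fit, and for Sdc3 it was -0.12 with library size alone, -0.067 with no filter and -0.024 with a minimum of 10 counts. With 1 library left out it ran from -0.13 to 0.31 for Ncam1, -0.19 to 0.20 for Sdc3, -0.48 to 0.020 for Met and -0.061 to 0.64 for Cav1. The cause was not tested. Single-gene results otherwise kept their direction, with 498 on the same side of the threshold, 31 losing it and 3 gaining it under settings other than leaving out a library. Depth limits the precision of Calcr at 3 DPI, which had at most 23 counts in a library. TRF2 MuSC-cKO replicate 3 at 3 DPI held 0 counts of Calcr and 1 of Cdh15 in a total of 687418, where control replicate 1 held 14 and 83 in 620506, so its total is not the lowest.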
